A study of Mus musculus with 4 samples.

Results

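H3K27me3 and H3K9me3 are the 2 repressive histone marks that were immunoprecipitated in this study, and here their libraries are compared with each other, tile by tile, along the 19 mouse autosomes. The 2 libraries were taken from the antibody labels, out of 4 libraries in all. The H3K27me3 library was made with the antibody AB6002 and the H3K9me3 library with AB8898. The remaining libraries, one for H3K4me3 and one of whole-cell extract (WCE) without immunoprecipitation, entered no test and are set beside the results. All 4 came from mouse fibroblasts named MDER 10T, and the series title says that their MyoD1 can be induced by estrogen. MyoD1 is a transcription factor that can turn fibroblasts towards skeletal muscle. No estrogen treatment, age or genotype is named in the labels, and all groups share the same medium without phenol red, with 10% FCS. Each mark has 1 library, so no spread between replicates can be measured, and each test compares the reads of 2 libraries and not conditions. Read positions alone, with no gene annotation of their genome build (mm8), give no check of the labelled fibroblasts against marker genes.

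Trimethylation of lysine 27 on histone H3 is laid down by Polycomb repressive complex 2 and marks genes that are silenced in a given cell type but used in others, among them the Hox clusters and other regulators of development. Trimethylation of lysine 9 is laid down by enzymes such as SUV39H1 and SETDB1, is bound by HP1 proteins, and is known from compact heterochromatin near centromeres, from repeated sequence and from some gene families. Both marks go with low transcription but by separate machinery. A direct comparison of their libraries needs no WCE.

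After 1 read was kept per signed position, the autosomes held 2933567 H3K27me3 reads and 2101444 H3K9me3 reads, so 58.3% of reads in a tile were expected to be H3K27me3 reads. Repeated positions had made up 6.86% of H3K27me3 and 8.40% of H3K9me3 reads. The H3K4me3 library held 3086567 such reads and the WCE library 2977697. Ratios below are H3K27me3 over H3K9me3 after scaling to equal autosomal totals, unless WCE is named, so a value over 1 means more H3K27me3 and a value under 1 more H3K9me3. Their 95% exact (Clopper-Pearson) intervals cover counting error only, because reads copied by PCR, with no molecular identifier, need not be separate molecules. The median tile held 9 H3K27me3 and 7 H3K9me3 reads at 10 kb, and 93 and 76 reads at 100 kb.

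The balance of the calls between the marks depended on the width of the tile. After adjustment, more tiles were called higher in H3K27me3 at 10 kb, and more were called higher in H3K9me3 at 100 kb. Of 232443 tiles of 10 kb, 2726 (1.17%) were higher in H3K27me3 and 1172 (0.504%) were higher in H3K9me3, each at a Benjamini-Hochberg adjusted p under 0.05 over both directions of a one-sided exact binomial test. Of 23809 tiles of 100 kb, 3198 (13.4%) were higher in H3K27me3 and 4579 (19.2%) in H3K9me3. Without adjustment, and scaled by autosomal totals, H3K9me3 led at both widths. At an unadjusted p under 0.05 of the same test, 16796 tiles of 10 kb were higher in H3K27me3 and 21023 in H3K9me3, and at 100 kb 4408 and 7470. Scaling by the median ratio of 100 kb tiles turned this order at 10 kb (18773 and 17375) but not at 100 kb (4988 and 6486). The unadjusted lead at 10 kb thus depended on the scaling. The ratio was below 1 in 55.6% of all 10 kb tiles and in 62.6% of all 100 kb tiles. Among adjusted calls, H3K27me3 took 79.5% at 5 kb, 69.9% at 10 kb, 58.1% at 20 kb, 47.5% at 50 kb, 41.1% at 100 kb and 37.6% at 200 kb. With the H3K27me3 library thinned to the size of the H3K9me3 library, its share was 75.2% at 10 kb and 43.1% at 100 kb. These counts rest on counting error alone. A beta-binomial test, which also allows for the spread of the ratio over all tiles of the size, called 0 tiles in either direction at both sizes. Its spread was estimated from the tested tiles with at least 20 reads, called ones included, so differences between the marks widen it. A count of 0 therefore cannot decide whether the marks differ in a tile. At 100 kb the beta-binomial test had 339 tiles higher in H3K27me3 and 1491 higher in H3K9me3 at an unadjusted p under 0.05, and at 10 kb 4228 and 7526.

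**Figure D1:**
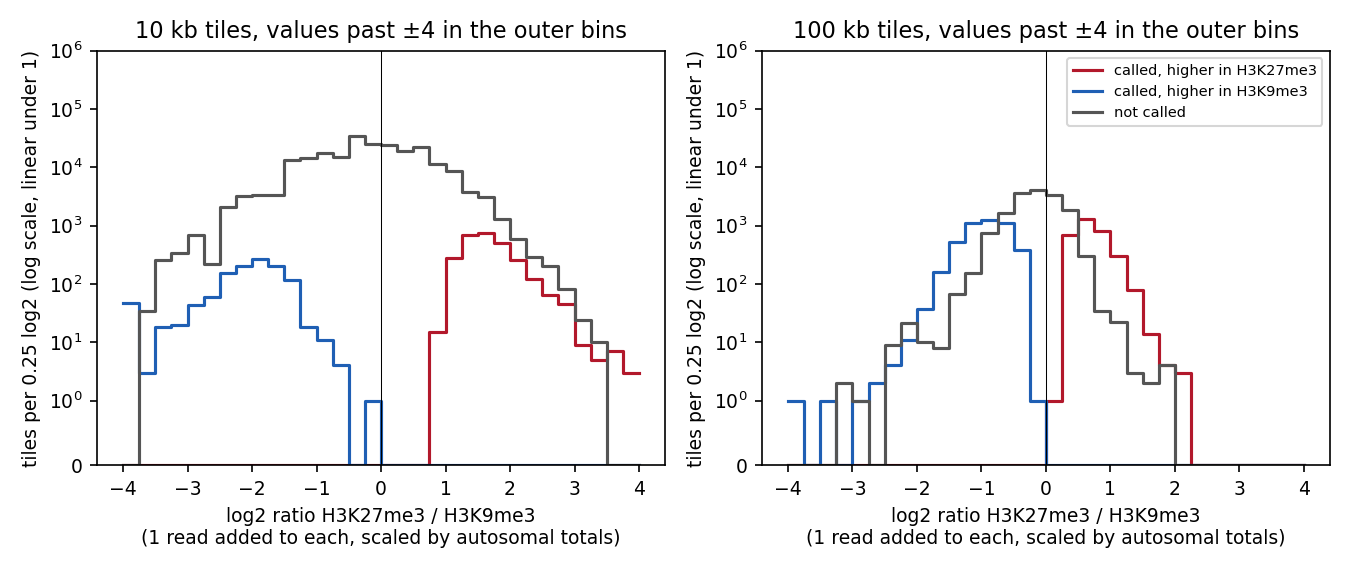
Number of tiles (vertical axis, log scale, linear under 1) by log2 ratio of H3K27me3 over H3K9me3 with 1 read added to each (horizontal axis), for 10 kb tiles on the left and 100 kb tiles on the right. Red and blue lines are tiles called higher in H3K27me3 and in H3K9me3, and the dark line is tiles not called: at 10 kb the 2726 and 1172 calls lie within the range of the uncalled tiles or past it, and at 100 kb the 3198 and 4579 calls outnumber uncalled tiles over most of both flanks.

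At 10 kb, which direction of calls showed the marks further apart depended on the measure. At 10 kb the median ratio was 3.26 (interquartile range 2.78 to 4.07) in tiles higher in H3K27me3 and 0.239 (0.179 to 0.296) in tiles higher in H3K9me3. At 100 kb the medians were 1.59 (1.44 to 1.81) and 0.528 (0.449 to 0.625). Pooled over the called tiles, the ratios were 3.21 and 0.342 at 10 kb, and 1.64 and 0.569 at 100 kb. At 10 kb the marks thus lay further apart on the H3K9me3 side by medians, and on the H3K27me3 side by pooled reads. Median reads of H3K27me3 and H3K9me3 there were 62 and 14 in tiles higher in H3K27me3, and 9 and 27 in the others. A tile with fewer reads needs a larger difference to be called. These values were used to call the tiles and are given as a description. Tiles higher in H3K27me3 held 6.26% of H3K27me3 reads and 1.95% of H3K9me3 reads at 10 kb, and 31.6% and 19.3% at 100 kb. Tiles higher in H3K9me3 held 0.678% of H3K27me3 reads and 1.98% of H3K9me3 reads at 10 kb, and 13.1% and 23.1% at 100 kb.

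The called tiles were also set against WCE. The H3K27me3 and H3K9me3 reads that chose the tiles are the numerators of these ratios, so their direction is partly fixed by the calls, and they are given as a description. In 10 kb tiles higher in H3K27me3, the pooled ratio to WCE was 3.20 (3.17 to 3.23) for H3K27me3 and 0.996 (0.984 to 1.009) for H3K9me3. In those tiles H3K27me3 lay above WCE while H3K9me3 lay at its level. In 10 kb tiles higher in H3K9me3, H3K27me3 stood at 0.712 (0.699 to 0.725) and H3K9me3 at 2.08 (2.05 to 2.11) times WCE. At 100 kb the tiles higher in H3K27me3 had 1.70 times WCE for H3K27me3 and 1.04 times for H3K9me3. The 100 kb tiles higher in H3K9me3 had 0.707 times WCE for H3K27me3 and 1.24 times for H3K9me3.

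**Figure D2:**
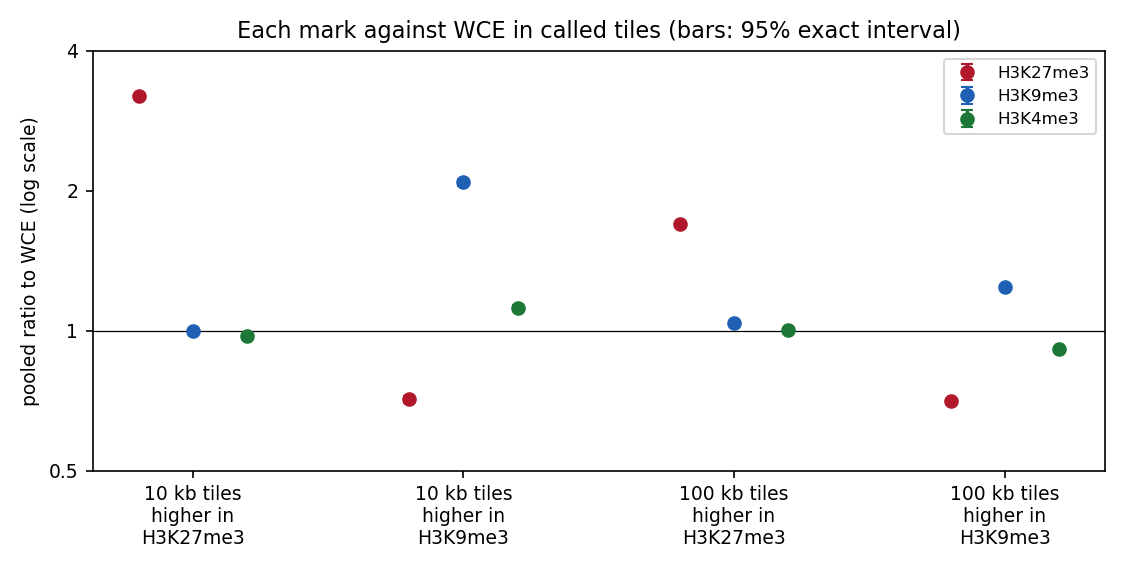
Pooled ratio of each mark to WCE (vertical axis, log scale) in the 4 sets of called tiles (horizontal axis). Points are H3K27me3 in red, H3K9me3 in blue and H3K4me3 in green, with 95% exact intervals that are mostly smaller than the points: H3K27me3 reaches 3.20 in 10 kb tiles higher in H3K27me3, and lies near 0.71 in tiles higher in H3K9me3 at both sizes.

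Tile by tile at 100 kb, among tiles with at least 50 WCE reads, H3K27me3 was at least 1.25 times WCE in 2834 of 3183 tiles called higher in it (89.0%), against 3976 of 21041 tiles of any kind (18.9%). H3K9me3 was at or under the inverse, 0.8, in 394 of those 3183 tiles (12.4%), against 26.3% of all tiles. Of 4096 tiles called higher in H3K9me3, H3K9me3 was at least 1.25 times WCE in 1607 (39.2%), against 12.6% of all tiles, and H3K27me3 was at or under 0.8 in 3006 (73.4%), against 45.8% of all tiles. In 2306 of the 4096, H3K27me3 was low and H3K9me3 was not raised by these limits, and in 907 H3K9me3 was raised and H3K27me3 was not low. Over all 21041 tiles these counts were 8932 and 1936. The median of H3K9me3 over the 4096 tiles was 1.15 times WCE, and it was at or under 0.8 in 245 of them (5.98%), against 26.3% of all tiles. A tile called higher in H3K9me3 is therefore not always one with more H3K9me3 than WCE. The limits of 1.25 and 0.8 were set after the data were seen.

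The tiles higher in H3K9me3 fell into read-poor and read-rich chromatin, and those higher in H3K27me3 lay mostly in read-rich chromatin. The read density of WCE depends on how much sequence can be mapped and on copy number, and often on base composition. The median 100 kb tile held 114 WCE reads. Of the 4579 tiles higher in H3K9me3, 2685 (58.6%) had no more WCE reads than that, while 501 of the 3198 tiles higher in H3K27me3 did (15.7%). Pooled over the read-poor 2685, H3K27me3 stood at 0.624 and H3K9me3 at 1.28 times WCE, and H3K4me3 at 0.513 times. Pooled over the 1894 read-rich tiles higher in H3K9me3, H3K27me3 stood at 0.754, H3K9me3 at 1.22 and H3K4me3 at 1.13 times WCE.

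The ratio of the marks moved with WCE density. The 100 kb tiles were ranked by WCE reads and cut into 10 deciles of equal number. The ratio was 0.667 (0.659 to 0.676) in decile 1, with the fewest WCE reads, 0.889 in decile 5, 1.036 in decile 7, 1.105 (1.101 to 1.110) in decile 9 and 1.084 in decile 10. H3K27me3 over WCE ran between 0.615 and 1.13 over the deciles, and H3K9me3 over WCE between 0.866 and 1.05. Calls higher in H3K27me3 made up 0.462% of the tiles in decile 1 and 27.1% in decile 10, and calls higher in H3K9me3 16.6% and 18.7%, with the most, 25.6%, in decile 4. Fewer reads also make a call less likely. At 10 kb the ratio ran between 0.743 in decile 1 and 1.101 in decile 9. What the gradient with WCE density reflects was not tested.

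**Figure D3:**
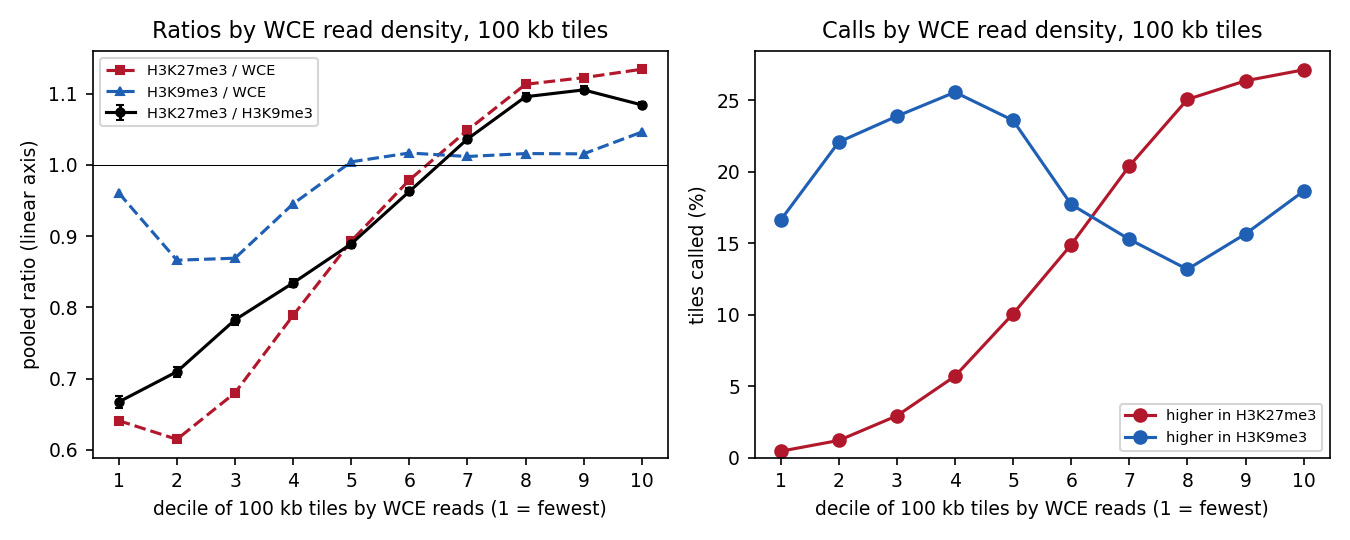
Left, pooled ratios (vertical axis, linear, not from 0) in deciles of the 100 kb tiles ranked by WCE reads (horizontal axis): H3K27me3 over H3K9me3 in black with 95% exact intervals, H3K27me3 over WCE in red and H3K9me3 over WCE in blue. Right, the percent of tiles called in each direction: calls higher in H3K27me3 climb to 27.1% in decile 10, with the most WCE reads, while calls higher in H3K9me3 are at 16.6% in decile 1 and 18.7% in decile 10.

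When the expected share was set separately in each WCE decile, a step chosen after the data were seen, 2304 tiles (0.991%) were higher in H3K27me3 and 1237 (0.532%) in H3K9me3 at 10 kb. At 100 kb the counts were 3292 (13.8%) and 3588 (15.1%). Of the first calls higher in H3K27me3, 80.4% at 10 kb and 82.5% at 100 kb were called again. Of those higher in H3K9me3, 86.6% at 10 kb but 63.0% at 100 kb were called again. The 100 kb tiles called higher in H3K27me3 this way had H3K27me3 at 1.72 and H3K9me3 at 1.02 times WCE, and those called higher in H3K9me3 had them at 0.756 and 1.21 times.

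Among the 100 kb tiles with the highest ratios, several were dense in reads and strongly raised in H3K27me3. On chromosome 15 from 102700001 to 102800000 the libraries held 1136 H3K27me3 and 179 H3K9me3 reads, with 180 H3K4me3 and 179 WCE reads, a ratio of 4.55 (3.88 to 5.35). On chromosome 11 from 96000001 to 96100000 they held 1067 H3K27me3 and 183 H3K9me3 reads (ratio 4.18, 3.57 to 4.91), and on chromosome 19 from 44800001 to 44900000 1216 and 236 reads (3.69, 3.21 to 4.26). H3K27me3 stood at 6.44, 5.92 and 5.32 times WCE in these 3 tiles, and H3K9me3 at 1.42, 1.42 and 1.44 times. H3K9me3 was thus also above WCE there, with intervals of 1.15 to 1.75, 1.15 to 1.75 and 1.20 to 1.74. The mouse Hox clusters lie on chromosomes 2, 6, 11 and 15 as background, but no tile was assigned to a gene here.

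In other tiles of high ratio H3K9me3 did not lie above WCE beyond counting error. Chromosome 7 from 79400001 to 79500000 held 645 H3K27me3 and 122 H3K9me3 reads (3.79, 3.12 to 4.63), with H3K27me3 at 3.62 and H3K9me3 at 0.955 times WCE. Chromosome 1 from 74800001 to 74900000 held 571 and 115 reads (3.56, 2.91 to 4.38), and chromosome 17 from 35700001 to 35800000 held 250 and 50 (3.58, 2.63 to 4.96). The highest ratio of all, 5.37 (2.28 to 15.4), came from a sparse tile on chromosome 8 from 74000001 to 74100000, with 45 H3K27me3, 6 H3K9me3 and 29 WCE reads. With 1 read added to each count, its ratio was 4.71, and 1.88 once reads with 2 positions were included, so its rank rests on leaving them out. The tile on chromosome 17 likewise had 3.53 and 2.03. In the chromosome 8 tile H3K27me3 stood at 1.58 times WCE (0.966 to 2.61) and H3K9me3 at 0.293 times (0.0995 to 0.719). Chromosome 5 from 22300001 to 22400000, with 88 H3K27me3, 18 H3K9me3 and 74 WCE reads (3.50, 2.09 to 6.18), was of the same kind, with H3K27me3 at 1.21 and H3K9me3 at 0.345 times WCE. A high ratio thus came from high H3K27me3 in some tiles and from low H3K9me3 in others.

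The 8 tiles of 100 kb with the lowest ratios were all sparse and had little H3K27me3, with H3K9me3 near WCE. The lowest was on chromosome 5 from 61100001 to 61200000, with 10 H3K27me3, 44 H3K9me3, 17 H3K4me3 and 55 WCE reads (ratio 0.163, 0.0731 to 0.328). On chromosome 16 the tile from 51100001 to 51200000 held 7 H3K27me3 and 28 H3K9me3 reads (0.179, 0.0660 to 0.420), and the tile from 60300001 to 60400000 held 14 and 45 (0.223, 0.113 to 0.413). Over the 8 tiles H3K27me3 lay between 0.185 and 0.281 times WCE, and H3K9me3 between 0.968 and 1.35 times, with intervals that included 1 in each. H3K4me3 was low as well, between 0.175 and 0.482 times WCE. The tiles were chosen for their low ratio, so little H3K27me3 is partly set by the choice. Pooled over all tiles of WCE deciles 1 and 2, those with the fewest WCE reads, H3K27me3 stood at 0.641 and 0.615 times WCE. The median of H3K4me3 over all tiles with at least 50 WCE reads was 0.603 times WCE. The 8 tiles differ from WCE by their lack of H3K27me3 reads, and their H3K9me3 reads cannot be told apart from the WCE level at this depth.

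Among the 10 kb tiles higher in H3K9me3, the tile on chromosome 18 from 37850001 to 37860000 held 6 H3K27me3 and 41 H3K9me3 reads, with 8 H3K4me3 and 10 WCE reads (ratio 0.105, 0.0364 to 0.248). H3K9me3 stood at 5.81 times WCE there (2.86 to 13.0). With 1 read added to each count its ratio was 0.119, and 0.202 once reads with 2 positions were included. On chromosome 2 from 168910001 to 168920000 the libraries held 4 H3K27me3 and 29 H3K9me3 reads (0.0988, 0.0252 to 0.281), and on chromosome 17 from 48520001 to 48530000 4 and 27 (0.106, 0.0270 to 0.305). On chromosome 12 from 107280001 to 107290000, 3 H3K27me3 reads faced 23 H3K9me3 and 4 WCE reads (0.0934, 0.0180 to 0.309). On chromosome 9 from 29380001 to 29390000 there were 0 H3K27me3 and 22 H3K9me3 reads, so H3K27me3 was at least 10.2-fold lower against a floor of 3 reads, with an exact upper limit of 0.131 for the ratio. In the 8 tiles of lowest ratio H3K9me3 lay between 2.02 and 8.15 times WCE. Its interval excluded 1 in 7 of them, the exception being the tile on chromosome 16 from 24870001 to 24880000 (2.02, 0.972 to 4.33). Named tiles had to hold at least 20 reads of the higher mark, while the median 10 kb tile held 7 H3K9me3 and 11 WCE reads, so that a level above WCE here is largely set by that minimum and is not set against the 100 kb tiles.

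The 10 kb tiles of highest ratio were led by tiles with few H3K9me3 reads. On chromosome 1 from 74810001 to 74820000 there were 133 H3K27me3 and 9 H3K9me3 reads, with 19 H3K4me3 and 16 WCE reads (ratio 10.6, 5.41 to 23.7). This tile lies inside one of the 100 kb tiles above. Chromosome 1 from 157510001 to 157520000 held 60 and 3 reads (14.3, 4.67 to 71.4), and chromosome 4 from 116370001 to 116380000 held 53 and 3 (12.7, 4.10 to 63.3). In these 3 tiles H3K27me3 stood at 8.44, 6.09 and 5.98 times WCE. On chromosomes 12 (32050001 to 32060000) and 9 (50290001 to 50300000), 30 H3K27me3 reads faced 1 H3K9me3 read in each (21.5, 3.57 to 877), and H3K27me3 was at 2.54 and 1.90 times WCE. On chromosome 5 from 121050001 to 121060000, 20 H3K27me3 reads faced 0 H3K9me3 reads, at least 4.78-fold higher against a floor of 3 reads, with an exact lower limit of 3.54. With reads of 2 positions added, this tile lost its call (adjusted p = 0.187, exact binomial test).

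Called tiles without any read of the other mark were more frequent on the H3K9me3 side, where the test needed fewer reads. H3K9me3 reads were absent from 10 of the 2726 tiles higher in H3K27me3 (0.367%), which held 15 to 20 H3K27me3 reads. H3K27me3 reads were absent from 46 of the 1172 tiles higher in H3K9me3 (3.92%), which held 9 to 22 H3K9me3 reads and lay on 18 chromosomes. WCE had 4 to 13 reads in the 10 tiles and 3 to 24 in the 46, so the sequence could be mapped in each. The larger H3K27me3 library makes a count of 0 rarer for H3K27me3, and lets fewer H3K9me3 reads reach the threshold.

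The tiles just inside the threshold differed 2.51-fold (H3K27me3 side) and 5.03-fold (H3K9me3 side) at 10 kb, and 1.35-fold and 1.31-fold at 100 kb. They are single tiles found by adjusted p and set no lower limit, as called tiles with more reads can differ by less. At 10 kb the last tile inside on the H3K27me3 side held 56 H3K27me3 and 16 H3K9me3 reads (chromosome 1, 184660001 to 184670000), and the first outside held 58 and 17 (chromosome 1, 137640001 to 137650000). On the H3K9me3 side the last inside held 5 and 18 (chromosome 1, 58740001 to 58750000) and the first outside 11 and 26 (chromosome 1, 122810001 to 122820000). At 100 kb the last inside held 187 and 99 reads on the H3K27me3 side (chromosome 10, 13600001 to 13700000) and 174 and 163 on the H3K9me3 side (chromosome 17, 49000001 to 49100000). The first outside held 227 and 124 reads (chromosome 4, 132000001 to 132100000) and 116 and 115 reads (chromosome 12, 76800001 to 76900000).

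Adjoining calls formed runs. At 10 kb the 2726 tiles higher in H3K27me3 joined into 2042 runs, of which 78.2% were single tiles, and 18.97% of the tiles lay in runs of at least 3. The 1172 tiles higher in H3K9me3 joined into 1042 runs, of which 91.1% were single tiles, with 6.91% of tiles in runs of at least 3. At 100 kb 57.6% of runs higher in H3K27me3 and 64.6% of runs higher in H3K9me3 were single tiles. Runs of at least 3 tiles held 40.9% and 47.1% of the tiles, and runs of at least 5 held 14.1% and 28.8%. At 10 kb runs of at least 5 had held 5.03% and 1.96%. The longest runs of 100 kb tiles measured 1000 kb for H3K27me3 and 3400 kb for H3K9me3. Where more tiles are called more of them adjoin, and no run length was tested.

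The longest 10 kb run higher in H3K27me3 covered 110 kb of chromosome 8 (125500001 to 125610000), with 1468 H3K27me3, 373 H3K9me3 and 480 WCE reads (ratio 2.82, 2.51 to 3.17). H3K27me3 was at 3.10 times WCE and H3K9me3 at 1.10 times (0.959 to 1.26). Runs of 90 kb lay on chromosome 15 from 102720001 to 102810000 (1223 H3K27me3 and 200 H3K9me3 reads, ratio 4.38) and on chromosome 19 from 44770001 to 44860000 (1132 and 206, ratio 3.94). On chromosome 11 a run of 80 kb began at 77700001 (683 and 155 reads, ratio 3.16) and one of 70 kb at 97340001 (866 and 157, ratio 3.95). H3K27me3 lay between 3.10 and 7.22 times WCE in the 5 runs, and H3K9me3 between 1.07 and 1.65 times. In the runs on chromosomes 15 and 19 the H3K9me3 interval against WCE lay above 1 (1.34 to 2.03 and 1.13 to 1.68).

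At 100 kb the longest run higher in H3K27me3 covered 1 Mb of chromosome 1 (94000001 to 95000000), with 3199 H3K27me3, 1395 H3K9me3 and 1750 WCE reads (ratio 1.64, 1.54 to 1.75). Among runs of 0.9 Mb, those with most reads lay on chromosome 11 from 118300001 to 119200000 (4425 H3K27me3 and 1936 H3K9me3 reads, ratio 1.64), on chromosome 15 from 77800001 to 78700000 (4247 and 1798, ratio 1.69), on chromosome 2 from 164600001 to 165500000 (3951 and 1608, ratio 1.76) and on chromosome 6 from 87900001 to 88800000 (3376 and 1471, ratio 1.64). In these 5 runs H3K27me3 lay between 1.71 and 2.02 times WCE and H3K9me3 between 1.04 and 1.23 times. When the expected share was set per WCE decile, every tile of the runs on chromosomes 1 and 11 was called again. On chromosomes 15, 2 and 6 this held for 8, 7 and 6 of 9 tiles. The ratios of the 5 runs then lay between 1.502 and 1.616, each below the interval of its first value. The wide runs had lower ratios than the 10 kb runs, but runs are made of called tiles. The tile just inside the threshold on the H3K27me3 side had a ratio of 2.51 at 10 kb and 1.35 at 100 kb. The order of the 2 kinds of run is therefore partly set by the test.

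The longest run higher in H3K9me3 covered 3.4 Mb of chromosome 5 (125900001 to 129300000), with 2622 H3K27me3, 4177 H3K9me3, 2166 H3K4me3 and 3167 WCE reads (ratio 0.450, 0.428 to 0.472). Its 34 tiles had ratios between 0.319 and 0.656. H3K27me3 stood at 0.840 times WCE and H3K9me3 at 1.87 times, so this run lay above WCE in H3K9me3. A run of 2.4 Mb on chromosome 4 (151300001 to 153700000) held 3117 H3K27me3 and 5043 H3K9me3 reads (0.443, 0.423 to 0.463), with H3K27me3 at 1.01 times WCE (0.957 to 1.06) and H3K9me3 at 2.27 times. Runs of 2.1 Mb on chromosome 15 (86300001 to 88400000; 2551 and 4307 reads, ratio 0.424), 1.8 Mb on chromosome 8 (91700001 to 93500000; 1876 and 2956, ratio 0.455) and 1.8 Mb on chromosome 2 (170200001 to 172000000; 1748 and 2894, ratio 0.433) had H3K9me3 at 2.02, 1.61 and 1.95 times WCE. H3K27me3 stood at 0.857, 0.734 and 0.842 times WCE in them. With the expected share set per WCE decile, 31 of the 34 tiles of the chromosome 5 run and every tile of the other 4 runs were called again. The ratios of the runs on chromosomes 5 and 2 then were 0.520 and 0.464, above the intervals of their first values.

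**Figure D4:**
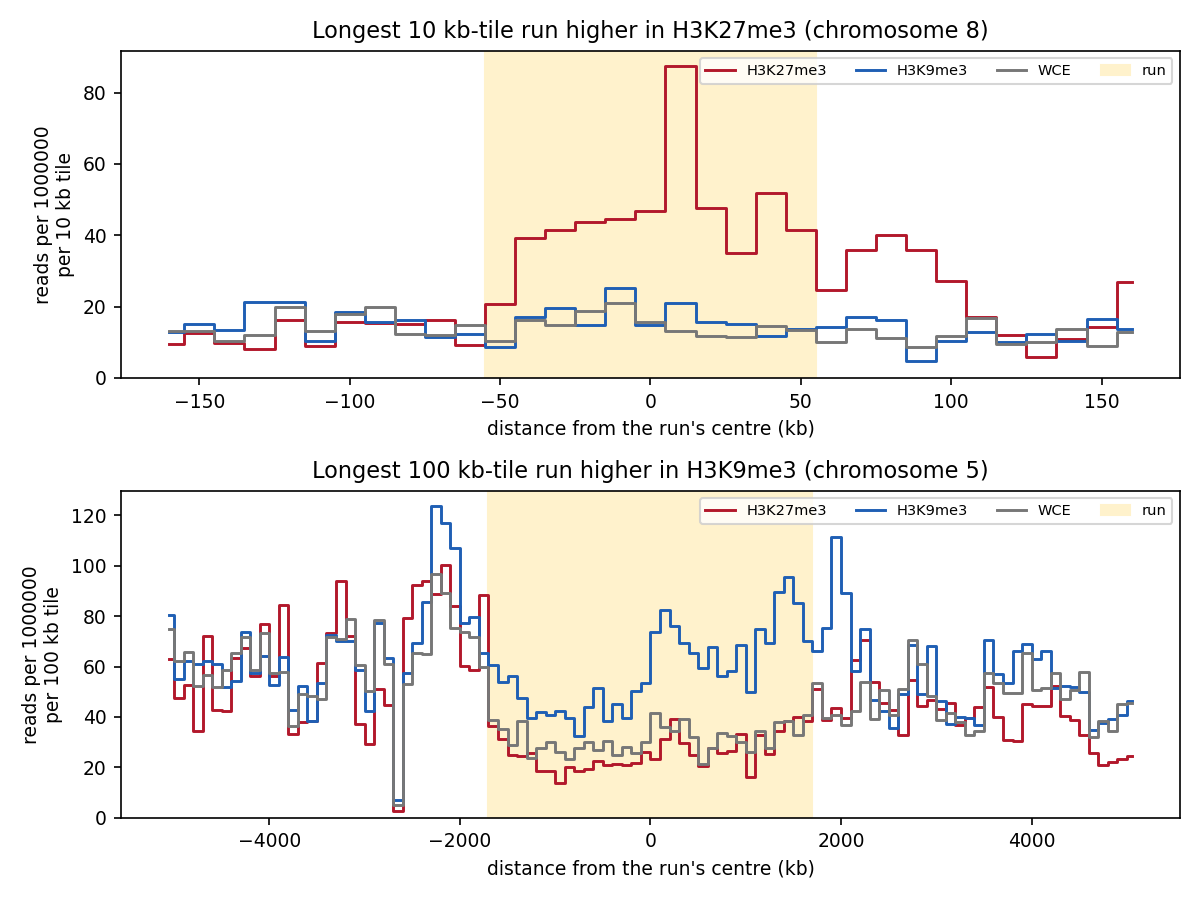
Reads in each tile, scaled to one autosomal total for all libraries (vertical axis) by distance from the centre of the run (horizontal axis), for H3K27me3 in red, H3K9me3 in blue and WCE in grey, with the run shaded. In the 110 kb run on chromosome 8 H3K27me3 lies above the other lines, at a ratio of 2.82 to H3K9me3, and in the 3.4 Mb run on chromosome 5 H3K9me3 lies above them in each tile, at a ratio of 0.450.

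Short H3K9me3 runs came in both read-rich and ordinary sequence. On chromosome 18 a run of 60 kb (37840001 to 37900000) held 78 H3K27me3, 250 H3K9me3 and 104 WCE reads (ratio 0.223, 0.171 to 0.289), with H3K9me3 at 3.41 times WCE and H3K27me3 at 0.761 times. Runs of 50 kb lay on chromosome 5 from 113370001 to 113420000 (64 H3K27me3 and 171 H3K9me3 reads, ratio 0.268) and on chromosome 2 from 170340001 to 170390000 (55 and 144, ratio 0.274). The run on chromosome 2 lies within the 1.8 Mb run above, and with the expected share set per WCE decile 2 of its 5 tiles were called again.

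Near the low-coordinate ends of chromosomes 11 and 9, runs higher in H3K9me3 lay in sequence with very many reads of every library. The run on chromosome 11 from 3030001 to 3100000 held 2400 H3K27me3, 2854 H3K9me3, 2112 H3K4me3 and 2818 WCE reads in 70 kb (ratio 0.602, 0.570 to 0.636). That on chromosome 9 from 3000001 to 3040000 held 376 H3K27me3, 683 H3K9me3 and 682 WCE reads in 40 kb (0.394, 0.347 to 0.448). H3K27me3 stood at 0.864 and 0.560 times WCE and H3K9me3 at 1.44 and 1.42 times. The called 10 kb tile with most WCE reads, on chromosome 17 from 39450001 to 39460000, held 3993 H3K27me3, 3111 H3K9me3 and 3128 WCE reads (ratio 0.919), 284 times the median WCE count of a tile. So many reads let a small difference pass the test.

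The 10 kb and 100 kb calls were nested. Of 10 kb tiles higher in H3K27me3, 90.1% lay in a 100 kb tile called the same way, against 13.7% of all 10 kb tiles, and 3 lay in one called the other way. Of 10 kb tiles higher in H3K9me3, 85.2% lay in a 100 kb tile called the same way, against 19.4% of all 10 kb tiles, and 10 in one called the other way. Each 10 kb tile adds its reads to its 100 kb tile, so the shares are not independent. Seen from the wide tiles, 44.7% of 100 kb tiles higher in H3K27me3 held a 10 kb call of that direction, against 15.4% of those higher in H3K9me3. Tiles higher in H3K27me3 had more reads (a median of 273 H3K27me3 and 122 H3K9me3 reads, against 69 and 92 in tiles higher in H3K9me3), and the part of depth in this difference was not tested. Inside a 100 kb tile higher in H3K27me3 a median of 8 of its 10 subtiles had a ratio over 1, and inside one higher in H3K9me3 a median of 9 had a ratio under 1. Over all tiles the medians were 4 and 6.

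Opposite calls were sometimes close together. Inside the 100 kb tile of chromosome 7 from 46200001, where the rest of the tile held 315 H3K27me3 and 110 H3K9me3 reads (ratio 2.05), the 10 kb from 46240001 to 46250000 held 44 and 93 (0.339, 0.231 to 0.490). On chromosome 6 the 10 kb from 29690001 to 29700000 held 31 and 72 reads (0.308), in a tile whose rest held 412 and 139 (2.12). The reverse case was seen on chromosome 8 from 127100001 to 127110000, with 63 H3K27me3 and 15 H3K9me3 reads (3.01, 1.69 to 5.69), in a tile whose rest held 345 and 337 (0.733). Of 3890 pairs of adjoining called 100 kb tiles, 1401 were both higher in H3K27me3, 2181 both higher in H3K9me3 and 308 (7.92%) opposite. At 10 kb 2 of 816 such pairs were opposite. A sharp border, chosen after its values were seen, as were the 3 tiles above, lay on chromosome 6 at 87300001, with 384 H3K27me3 and 125 H3K9me3 reads in the 100 kb above it (ratio 2.20, 1.79 to 2.71) and 181 and 231 in the 100 kb below it (0.561, 0.459 to 0.685).

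Beyond counting error, the log2 ratio varied over tiles with an SD of 0.65 at 10 kb, 0.56 at 100 kb and 0.36 at 1000 kb, among tiles with at least 20 reads. Within WCE deciles the SD was 0.64, 0.53 and 0.31. Corrected for counting error, the correlation of the H3K27me3 share between 100 kb tiles was 0.58 for adjoining tiles (24614 pairs), 0.30 at a distance of 0.3 Mb, 0.20 at 1 Mb, 0.14 at 2 Mb and 0.023 at 5 Mb. Tiles of 1 chromosome share libraries and neighbouring WCE density, so these are descriptions. With the share centred per WCE decile they were 0.52, 0.21, 0.14, 0.11 and 0.039.

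Chromosomes differed less than tiles. The ratio was highest on chromosome 19 (119131 H3K27me3 and 76428 H3K9me3 reads, 1.117, 1.106 to 1.127) and chromosome 11 (212307 and 138442, 1.099, 1.091 to 1.106), and lowest on chromosome 16 (81216 and 62719, 0.928, 0.918 to 0.937) and chromosome 12 (136317 and 103966, 0.939, 0.932 to 0.947). In 100 kb tiles that were not called, scaled by their own totals, these 4 chromosomes stood at 1.033, 1.024, 0.979 and 0.989. Leaving out called tiles removes those chosen for their ratio, so values nearer to 1 follow in part from that choice. At 10 kb 3.29% of the tiles of chromosome 19 and 2.54% of those of chromosome 11 were higher in H3K27me3, against 0.353% on chromosome 16. Calls higher in H3K9me3 were most frequent at 100 kb on chromosome 8 (27.5%) and least frequent on chromosome 3 (13.1%), and at 10 kb most frequent on chromosome 8 (0.930%) and least on chromosome 1 (0.148%). WCE density was 1899 reads per Mb on chromosome 19 and 1607 on chromosome 11, against 975 on chromosome 16 and 920 on chromosome 3. The X chromosome, outside the autosomal comparison, had 49222 H3K27me3 and 37440 H3K9me3 reads (0.942, 0.929 to 0.955).

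**Figure D5:**
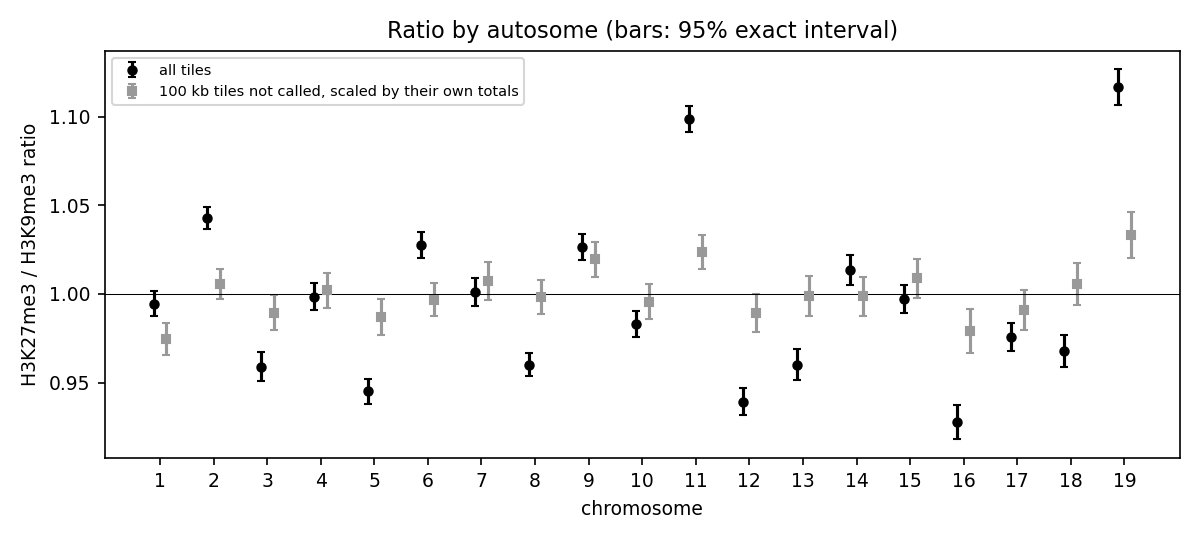
Ratio of H3K27me3 over H3K9me3 (vertical axis, linear, not from 0) for each autosome (horizontal axis), with 95% exact intervals. Black points are all reads of the chromosome and grey squares its 100 kb tiles that were not called: chromosomes 19 and 11 stand highest at 1.117 and 1.099, and chromosome 16 lowest at 0.928.

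Towards the high-coordinate ends of the autosomes the balance moved to H3K9me3, but not in the last 2 Mb. From 5 to 10 Mb before the last read of a chromosome the ratio was 0.930 (0.923 to 0.937), with H3K27me3 at 1.08 and H3K9me3 at 1.16 times WCE. There 34.3% of 100 kb tiles were higher in H3K9me3 and 13.0% higher in H3K27me3, and 15 of 19 chromosomes lay below their own mean ratio. In the last 2 Mb the ratio was 1.061 (1.046 to 1.075), with 14.8% of tiles higher in H3K9me3, although 12 of 19 chromosomes lay below their own mean. From 10 to 20 Mb of coordinate, towards the low-coordinate ends, the ratio was 0.952 (0.945 to 0.959), but there H3K27me3 and H3K9me3 were both below WCE (0.875 and 0.919 times).

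H3K4me3 is a mark of active promoters, and its library took no part in the calls. Pooled over the called 10 kb tiles, it stood at 0.975 (0.964 to 0.986) times WCE in tiles higher in H3K27me3. In tiles higher in H3K9me3 it stood at 1.12 (1.10 to 1.14) times. The medians per tile were 15 H3K4me3 and 21 WCE reads in the first set and 12 and 15 in the second. Over all 10 kb tiles they were 6 and 11, so the pooled values do not describe the typical tile. Pooled over the called 100 kb tiles, the order was reversed. There H3K4me3 stood at 1.004 times WCE in tiles higher in H3K27me3 and at 0.913 times in those higher in H3K9me3. Across deciles of 100 kb tiles ranked by H3K4me3 over WCE, among tiles with at least 50 WCE reads, the ratio of H3K27me3 over H3K9me3 was 0.781 (0.773 to 0.788) in decile 1, with the least, 1.016 in decile 5, 1.090 (1.085 to 1.095) in decile 8 and 0.992 (0.987 to 0.997) in decile 10. Calls higher in H3K27me3 made up 1.95% of decile 1, 24.95% of decile 7 and 11.8% of decile 10. Calls higher in H3K9me3 made up 20.3%, 24.2% and 13.9% of these deciles. Median WCE reads per tile ran from 68 in decile 1 to 192 in decile 10, so that the H3K4me3 order and the WCE order overlap, and their parts were not separated.

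Reads that the aligner placed at 2 positions, left out above, were tested apart in 110651 tiles of 10 kb. Of these, 37 (0.0334%) were higher in H3K27me3 and 22 (0.0199%) in H3K9me3. The tiles called from reads with 1 position were called from them as well in 2 cases for H3K27me3 and 13 for H3K9me3.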

How the data were processed

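Chromatin immunoprecipitation followed by sequencing was done on sonicated extract (mean fragment 500 bp), amplified by LM-PCR for 18 cycles, with bands cut at 150 to 350 bp, per the labels' protocols. The deposited files list signed read positions and no counts. Reads were aligned to mm8 with Bowtie (e 70, k 2, m 2, n 2, l 36), per the file headers, so reads with more than 2 places were dropped. Reads with 1 position were used. They were collapsed to 1 per signed position, shifted 60 bp along the strand and counted in tiles of 10 and 100 kb that held at least 1 read of either mark. Each tile was tested in both directions by a one-sided exact binomial test, adjusted over both directions together. The test was checked on simulated counts with counting error alone and changes set in chosen tiles. That check cannot show how the test behaves where the ratio itself varies over tiles. Named tiles are the 8 with the most extreme ratio (1 read added) per size and direction among called tiles with at least 20 reads of the higher mark, the 5 longest runs, and those beside the threshold. The members, lists and rules were chosen with earlier results of these data known. No mm8 genome or annotation was used, so no gene is named and no sequence printed. Coordinates are mm8, counted from 1. Counting used numpy 2.4.6 under Python 3.11.15, tests used scipy 1.17.1, and figures were drawn with matplotlib 3.10.9. Alternatives changed repeated reads, shift, scaling, grid, tile size, thresholds, low-count filter, depth, strand, reads with 2 positions and the test. No replicate exists for any mark.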

Additional observations from a re-analysis of the deposited data

Results flagged for a closer look

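Reads that Bowtie placed at 2 positions, which the comparison above does not use, also differed between the marks. They numbered 176807 H3K27me3 and 146086 H3K9me3 autosomal lines, or 6.03% and 6.95% of the reads with 1 position. Of the 37 and 22 tiles called from them by the same exact binomial test, 35 higher in H3K27me3 and 9 higher in H3K9me3 were not called from reads with 1 position and lay above WCE in the higher mark. The reads of that mark chose the tiles, so a level above WCE is partly fixed by the calls. The strongest of these tiles were on chromosome 11 from 49450001 to 49460000 (130 H3K27me3, 25 H3K9me3 and 35 WCE reads), on chromosome 3 from 96470001 to 96480000 (103, 17 and 30) and on chromosome 17 from 35010001 to 35020000 (101, 20 and 38). In the last of these no read of either mark with 1 position was seen. On the H3K9me3 side, chromosome 17 from 34570001 to 34580000 held 31 H3K27me3, 82 H3K9me3 and 14 WCE reads, and the tile before it 42, 97 and 18. H3K4me3 had 55 and 102 reads in these tiles, so each immunoprecipitated library lay above WCE in both. Each such read is listed at both of its places, so its origin is not known.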

How the results depend on the processing

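No paired analysis was possible because each mark has 1 library. Calls higher in H3K27me3 and in H3K9me3 are given in that order. At 10 kb (2726 and 1172), the counts were 1446 and 407 at an adjusted p under 0.01, 1248 and 321 with 5 kb tiles, 4157 and 3002 with 20 kb tiles, 502 and 94 from forward reads only, and 469 and 103 from reverse reads only. The second count was 2278 with all reads kept, 1983 in tiles with at least 20 reads of both together and 679 with H3K27me3 thinned. At 100 kb (3198 and 4579) they were 1917 and 2172 from forward reads and 1891 and 2030 from reverse reads, the first was 2027 at a ratio of at least 1.5, and the second 2832 at an adjusted p under 0.01. The beta-binomial test, with its spread taken from the same tiles, gave 0 in all 4 cases. The other counts, among them those with no shift, a shift of 100 bp, scaling by the median ratio (3282 and 994, 3671 and 3884), a moved grid and reads with 2 positions added, lay within 1.5 times the first. Strand-wise counts rest on fewer reads, as does thinning. Of 288 values of the 32 tiles of most extreme ratio under 9 alternatives, 258 kept their call, 30 lost it (29 of them with the reads of 1 strand) and 0 changed direction. Of 180 run ratios, 172 stayed within their interval and 0 changed direction. Of the 8 that left it, 7 did so with the expected share set per WCE decile. Depth limits the 10 kb tiles most, and no value has a replicate.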
